A study of Gallus gallus with 7 samples.

Results

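The segments described here are short stretches of the chicken genome whose mean CpG methylation was lower by 15 percentage points or more in microglia of heat-conditioned chicks than in microglia of non-conditioned chicks. They were selected on the difference of both group means in the authors' deposited table of 53008 segments, and 1023 segments met the rule, 1.93% of all. Because the group difference chose them, their differences are given as descriptions, and no test of conditioned against non-conditioned microglia was run in them. Methylation was measured by reduced representation bisulfite sequencing, which reads CpG-rich fragments after bisulfite has turned unmethylated cytosines into bases read as thymine.

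Microglia are the resident macrophages of the brain, and per the labels they came from the anterior hypothalamus of 10-day-old chicks by fluorescence-activated sorting. Conditioning was 24 h of 39 °C on day 3 after hatch, which the non-conditioned chicks did not get, and the DNA was taken before any LPS was given. Non-conditioned microglia gave 4 libraries (1 to 4) and conditioned microglia 3 (1-2, 3 and 4). Cells were pooled over 10 to 12 birds, and a library used 15 to 30 ng of DNA. The labels do not say how library 1-2 came to its number, and it was treated as 1 library. The strain and sex of the chicks are not given in the labels used here, and the microglial identity of the sorted cells could not be checked from methylation percentages. Each chick was measured at 1 age, so a lower level is a difference between groups of birds and not a change followed over time.

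In vertebrates most methylation sits on the cytosine of CpG pairs, on both strands, and is copied to the new strand when DNA is replicated. CpG-dense promoters are usually kept free of it, while CpGs elsewhere in the genome are usually methylated. Partial methylation of a short region in a pool of animals can mean that cells differ, that the copies of a gene differ, or that animals differ, and a mean percentage does not separate these.

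Library values were available for chromosomes 1 and 10 to 13 and for chromosome 14 up to position 4886681, on galGal5. They covered 11570 segments, of which 218 belong to the lower set. Over positions measured in all 7 libraries, the library means ran from 18.2% to 19.0% in non-conditioned microglia and were 19.9%, 15.97% and 17.2% in conditioned libraries 1-2, 3 and 4. The number of positions with a value ran from 652465 to 694825 in the non-conditioned libraries, and was 724260, 862443 and 834475 in the conditioned ones. Conditioned libraries 3 and 4 therefore stood below the others in level and above them in positions measured. The number of reads behind each percentage is unknown.

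The lower segments were mostly partly methylated in non-conditioned microglia, and close to unmethylated or still partly methylated in conditioned microglia. The deposited means had medians of 33.1% (non-conditioned) and 12.0% (conditioned), with interquartile ranges of 23.6% to 57.8% and 3.26% to 37.0%. The median difference was -18.7 points. In 641 segments the difference was under 20 points, in 51 it was at least 30 points and in 10 at least 40 points. The largest was -58.1 points. A segment can be lower by 15 points only if it starts at 15% or more. Of the 12475 segments that did, the lower set made up 8.20%. In the opposite direction, 584 of the 53008 segments (1.10%) were higher by 15 points or more.

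By starting level, the lower set fell into 462 segments with a non-conditioned mean under 30%, 330 at 30% to 60% and 231 at 60% or more. The first group ended at a median of 3.12%, the second at 22.3% and the third at 52.0%. The median differences were -18.0, -19.9 and -18.7 points. The rule fixes their near end at 15 points, and a segment starting under 30% cannot be lower by more than its starting level. In 101 segments the conditioned mean was under 1%, in 327 it was under 5%, and in 26 it was listed at 0. At the other end, 415 segments kept a conditioned mean of at least 50% of the non-conditioned one.

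The share of segments that belong to the lower set was highest for starting levels of 20% to 30%, at 337 of 2631 or 12.8%. It was 5.13% at 15% to 20% and 8.09% at 30% to 40%. From 40% to 80% it lay between 7.43% and 9.08%, and it was 5.17% at 80% to 90%. At 90% or more it was 2.25%. The histogram of starting levels drops steeply above 30%. The highest starting levels were 100% on an unplaced scaffold, 95% at chromosome 1, 194470216 to 194470274, and 92.1% at chromosome 27, 1414635 to 1414729. These ended at 83.3%, 76.2% and 74.4%. The lowest, beside the segment at 15% described with the threshold, were 15.4% at chromosome 26, 3172954 to 3172994, and 15.5% at chromosome 9, 1470241 to 1470556, which ended at 0 and 0.350%.

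**Figure D1:**
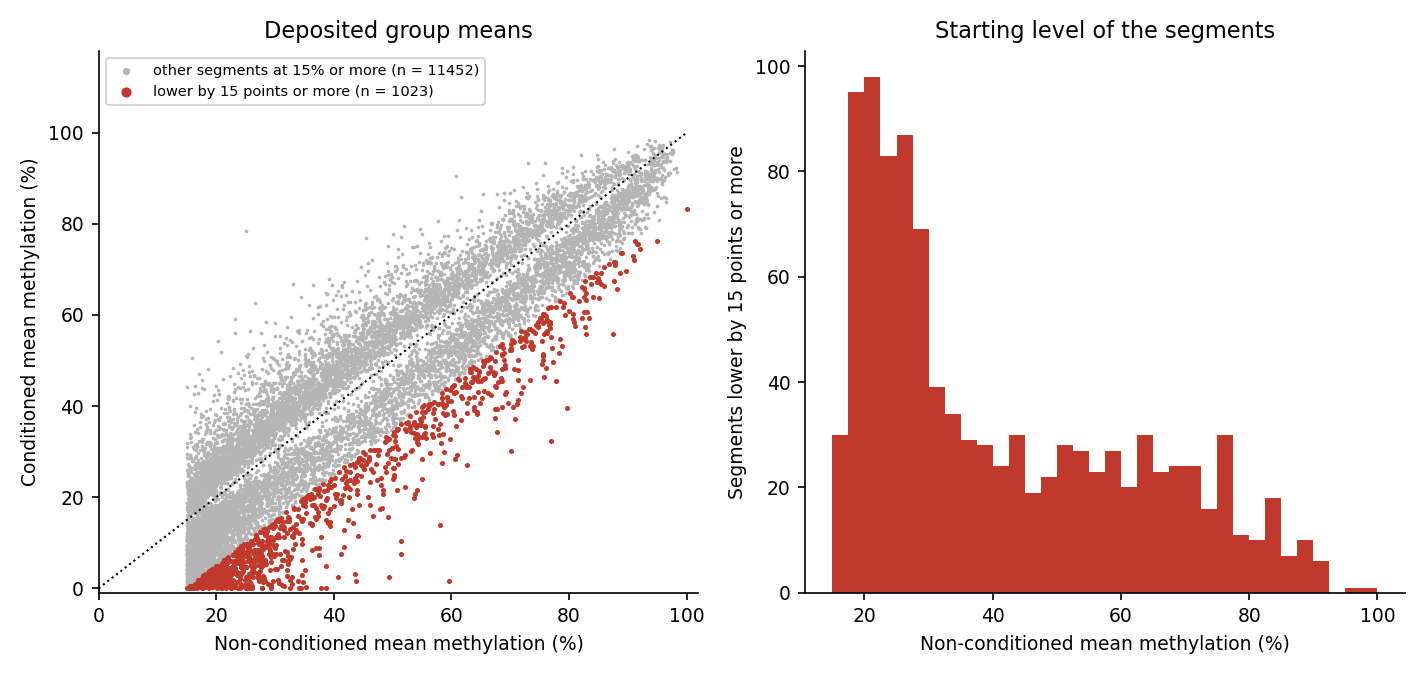
Left, deposited mean methylation of each segment with a non-conditioned mean of at least 15% (horizontal axis, percent) against its conditioned mean (vertical axis, percent), with the 1023 lower segments in red, the others in grey and equal levels as a dotted line. Right, number of the 1023 lower segments by non-conditioned mean in bins of 2.5 points. Of the 1023, 462 start below 30%, and 8 start at 90% or more.

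The segment table holds few segments without a difference at these levels. Of the 12475 segments starting at 15% or more, 553 (4.43%) differed by under 2 points in either direction. Of the segments that started lower it was 45.3%, but small differences come more easily near 0, so these shares are not alike. The thinner band along the dotted line of the plot of group means shows how few segments starting at 15% or more had small differences. Shares of segments are therefore not shares of the measured genome. Just inside the threshold stood the segment at chromosome 19, 8566848 to 8566907, with deposited means of 15% and 0, and the one at chromosome 5, 58036206 to 58036337, with 24.3% and 9.26%. Just outside stood chromosome 2, 45575591 to 45575901, with 18.0% and 2.96%, and chromosome 1, 117845349 to 117845400, with 22.5% and 7.46%.

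The lower segments were longer and less CpG-dense than segments in general, and in this they resembled the other segments with a starting level of 15% or more. Their median length was 72 bp, against 50 bp over all segments, 71 bp over those starting at 15% or more and 73.5 bp over those higher by 15 points. Per 100 bp they held a median of 15.6 measured CpG positions, where the 2 strands of a CpG count separately, against 25.6 over all segments, 16.4 over those starting at 15% or more and 15.2 over the higher ones. The table lists no segment with fewer than 10 positions. Of the lower set 607 segments (59.3%) had exactly 10, against 49.3% of all segments and 56.3% of those starting at 15% or more. Only 129 had 15 or more and 36 had 20 or more. Lengths ran from 13 to 732 bp, and segments starting at 60% or more were longer (median 95 bp) than those starting under 30% (66.5 bp).

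In the authors' deposited table, 7 of the 1023 segments had a q-value under 0.05. That is 0.684%, where 0.621% of all 53008 segments had such a q-value and were lower in conditioned microglia. The deposited Mann-Whitney p-value was under 0.05 in 782 of the 1023, and 44.7% of all segments met that and were lower. The deposited Kolmogorov-Smirnov p-value was under 0.05 in 690 of them, against 37.8% of all segments. Since the rule used the same contrast, nothing is read from these shares. In all 26 segments whose conditioned mean was listed at 0, the authors' deposited table gave a Kolmogorov-Smirnov p-value of 1 although their non-conditioned means ran from 15% to 38.6%. The same held in all 7 of the segments higher by 15 points that started at 0, and in 1 of the 997 lower segments that ended above 0. That one lies on an unplaced scaffold and had deposited means of 100% and 83.3%.

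The lower segments were found on every assembled chromosome with at least 300 segments. Their share of all segments ran from 1.32% on chromosome 14 to 4.08% on chromosome 27. Chromosomes 1, 2 and 5 carried the most, with 94, 76 and 55 segments, followed by chromosome 3 with 54, chromosome 4 with 51 and chromosome 27 with 50. On 28 of these 29 chromosomes more segments were lower than higher by 15 points, and the exception was chromosome 28 with 32 lower and 40 higher. Unplaced scaffolds carried 60 lower and 60 higher segments. The 60 lower ones lay on 46 of 745 scaffolds. None of the 5 mitochondrial segments belonged to the set.

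The order of the chromosomes turned around with the denominator. Chicken chromosomes fall into large macrochromosomes and small, gene-rich and CpG-rich microchromosomes. Of all segments, the lower set made up 1.66% on chromosomes 1 to 5, 1.66% on chromosomes 6 to 10 and 2.32% on chromosomes 11 to 33. Of segments starting at 15% or more it made up 10.9%, 7.85% and 7.43%. Such segments were 15.3%, 21.1% and 31.2% of all segments there. The Z chromosome was near the largest chromosomes, with 36 lower segments of 2279 (1.58%) and of 308 starting at 15% or more (11.7%). Within starting levels of 15% to 30% the shares were 12.5%, 8.41% and 7.29% on chromosomes 1 to 5, 6 to 10 and 11 to 33. Within 30% to 60% they were 10.8%, 7.80% and 7.34%, and at 60% or more 7.16%, 6.82% and 7.72%. Chromosomes 1 to 5 thus stood higher below 60% and not above it. Members on chromosomes 1 to 5 also started lower (median 27.1%) than those on chromosomes 11 to 33 (42.0%).

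**Figure D2:**
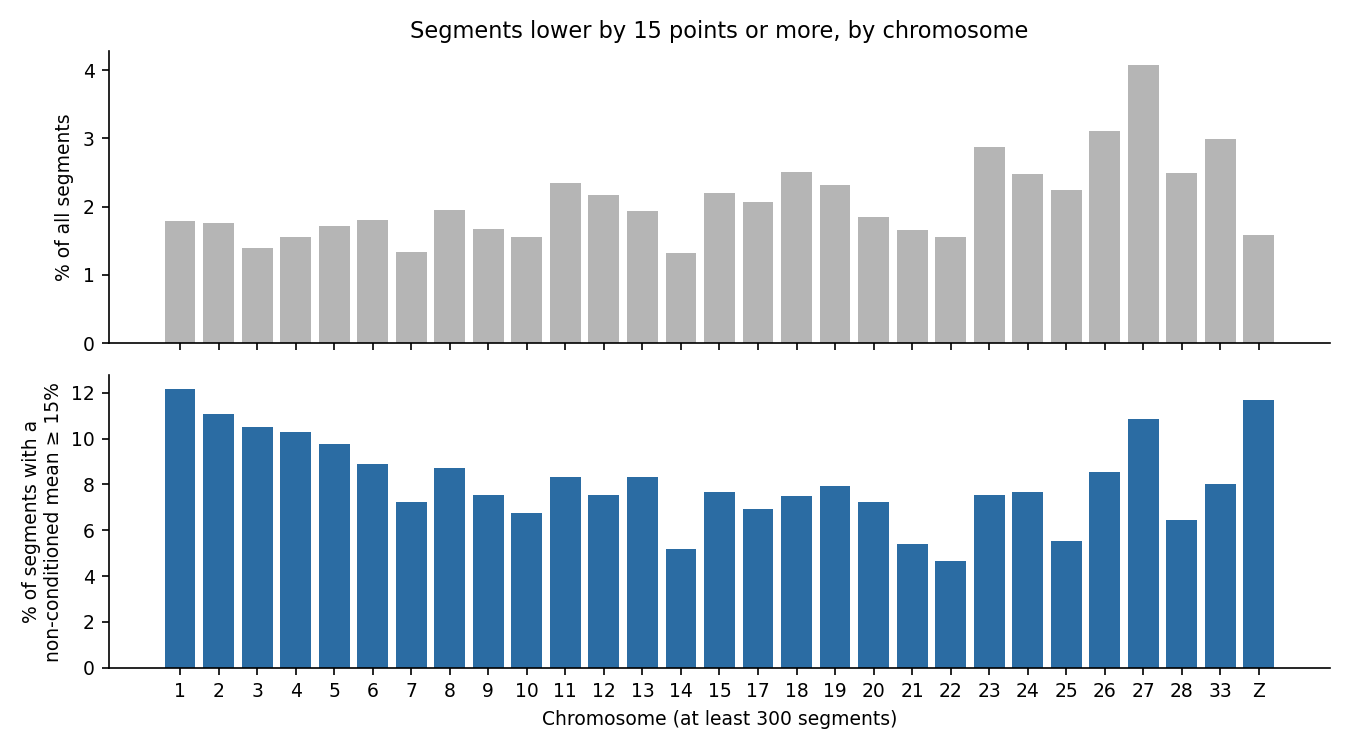
Share of segments lower by 15 points or more on each of the 29 chromosomes with at least 300 segments, as percent of all segments of the chromosome (top) and as percent of its segments with a non-conditioned mean of at least 15% (bottom). Both axes start at 0. Chromosome 27 is highest in the top panel at 4.08%, and chromosome 1 in the bottom panel at 12.1%.

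Among chromosomes 11 to 33, chromosome 27 had the highest share by either measure, with 4.08% of its 1225 segments and 10.8% of its 461 segments starting at 15% or more. Its 50 lower segments were spread from position 62025 to 5518110. They started at 17.9% to 92.1%, with a median of 46.1%, and ended at a median of 25.6%. Of the 50, 16 lay within 10 kb of another lower segment.

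Most lower segments stood alone. With neighbours grouped when at most 10 kb lay between them, 204 of the 1023 (19.9%) fell into 92 groups, of which 78 were pairs. Of the segments higher by 15 points, 134 of 584 (22.9%) fell into groups by the same rule. Counted over all pairs of neighbours, 264 of 3306 segments within 10 kb of a lower segment and starting at 15% or more were in the lower set too, which is 7.99%. Around any segment starting at 15% or more, this share was 6.15%. Within 1 kb the shares were 7.09% and 5.84%. With each segment starting at 15% or more counted once, wherever it lay, 8.20% were in the lower set. Neighbours higher by 15 points made up 1.77% of all segments within 10 kb of a lower segment, and 3.24% of those within 10 kb of a higher one.

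The groups with the most members held mainly partly methylated segments. On chromosome 19, 5 of the 7 segments between 5525387 and 5536195, a span of 10809 bp, were in the lower set. In order of position their deposited means were 68.7% and 51.1%, 83.0% and 64.8%, 82.9% and 55.8%, 53.8% and 32.9%, and 79.6% and 39.5%. Each of the 5 thus kept at least 32.9% in conditioned microglia. On chromosome 33, 4 of the 22 segments between 1593935 and 1612428 were in the set, with starting levels of 26.6% to 87.7%, and the first of them ended at 0. On chromosome 15, 3 of the 9 segments within a span of 1499 bp, from 931675 to 933173, were in the set, starting at 58.2% to 74.7%.

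The largest group, on chromosome 1 from 112374163 to 112385928, held 6 lower segments within 11766 bp, and its library values could be read. Over the 74 positions of these 6 segments, the non-conditioned libraries 1 to 4 had 59.7%, 58.2%, 54.6% and 57.6%. Conditioned libraries 1-2, 3 and 4 had 33.6%, 40.2% and 43.4%. The group means were 57.5% ± 2.13 (SD, n = 4) and 39.1% ± 5.03 (SD, n = 3). In 5 of the 6 segments all 4 non-conditioned libraries lay above all 3 conditioned ones, which held in 17.1% of all segments with library values. It also held in 6 of the 26 other segments of the span. The exception, at 112383150 to 112383231, had 75.6% in non-conditioned library 3 and 79.2% in conditioned library 1-2.

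Averaged over the span outside the 6 segments, the group means were close. Over the other 1195 positions of the span, the group means came to 21.8% ± 0.738 (SD, n = 4) and 20.4% ± 2.87 (SD, n = 3), and conditioned library 1-2 at 23.1% stood above every non-conditioned library. Of the 12 other segments there that started at 15% or more, 9 were lower in conditioned microglia, by 3.08 to 13.1 points. Over all segments with library values that started at 15% or more, 57.7% were lower. Among the 12, 1 was higher by over 15 points. That one had 24.2%, 33%, 41.7% and 21% in the non-conditioned and 75.3%, 44.7% and 45.9% in the conditioned libraries. The 6 lower stretches thus lay among segments of mixed levels.

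**Figure D3:**
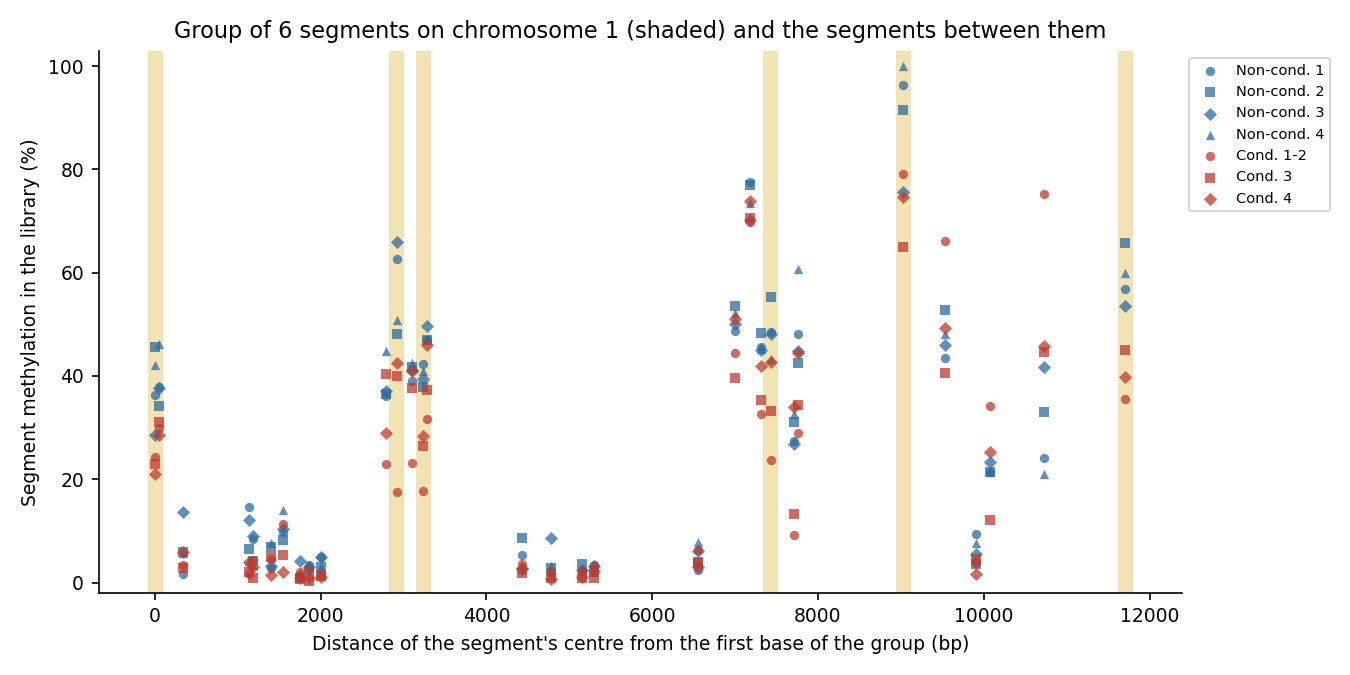
Methylation of the 32 segments of the chromosome 1 group in each library (vertical axis, percent) by distance of the segment's centre from the first base of the group (horizontal axis, bp), with non-conditioned libraries in blue, conditioned libraries in red and the 6 lower segments shaded (shading is wider than the segment and takes in close neighbours). In many of the other segments the colours mix, and in the one segment higher by over 15 points conditioned library 1-2 reaches 75.3%.

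In the 218 lower segments with library values, chosen on the group difference, the medians were 30.8%, 37.1%, 39.6% and 43.4% in non-conditioned libraries 1 to 4 and 12.2%, 6.36% and 8.86% in conditioned libraries 1-2, 3 and 4. The separation was less clear segment by segment. In 77 segments (35.3%) all 4 non-conditioned libraries lay above all 3 conditioned ones. That held in 17.1% of all 11570 segments and in 334 of the 2381 starting at 15% or more. In 85 segments 3 of the 4 non-conditioned libraries lay above every conditioned one, in 47 it was 2, in 8 it was 1, and in 1 segment it was none. Without conditioned library 1-2 the groups did not overlap in 56.0% of the 218, and in 45.3% of all 11570. Fewer libraries make such a separation easier, and for the 6 other libraries leaving 1 out gave 39.0% to 49.1% in the lower set and 19.6% to 23.6% over all 11570. With every library shifted to the same mean over the common positions, 170 segments met the rule, and the groups did not overlap in 27.1% of them. The mean difference exceeded the SD of the non-conditioned libraries in 132 of the 218 segments, and was over 2 times the larger of both group SDs in 34.

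The spread lay mostly among the non-conditioned libraries. Their median SD in the lower segments was 16.8 points, against 4.86 points among the conditioned libraries. Over all segments starting at 15% or more these SDs were 5.34 and 6.10 points. In segments higher by 15 points the order was turned around, with 8.80 points among non-conditioned and 16.0 points among conditioned libraries. Over each set as a whole, the group with the higher mean had the wider spread. Both sets were chosen on these same values, and the choice favours segments with an unusually high library in that group. Levels near the bottom of the scale also leave little room for spread. The order of the SDs is therefore partly set by construction, and nothing is read from it. The spread differed with the starting level. Among non-conditioned libraries the median SD was 22.2 points in the 106 segments starting under 30%, 15.6 points in the 70 starting at 30% to 60% and 9.03 points in the 42 starting at 60% or more. Among conditioned libraries it was 2.40, 6.78 and 12.0 points at these levels. In segments starting at 60% or more the conditioned libraries had the wider spread. The choice and the ends of the scale bear on these SDs too, so nothing is read from their order. The groups did not overlap in 30, 31 and 16 of the segments at these levels. Over all segments with library values that started at 15% to 30%, 30% to 60% and 60% or more, they did not overlap in 15.6%, 10.5% and 16.1%.

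**Figure D4:**
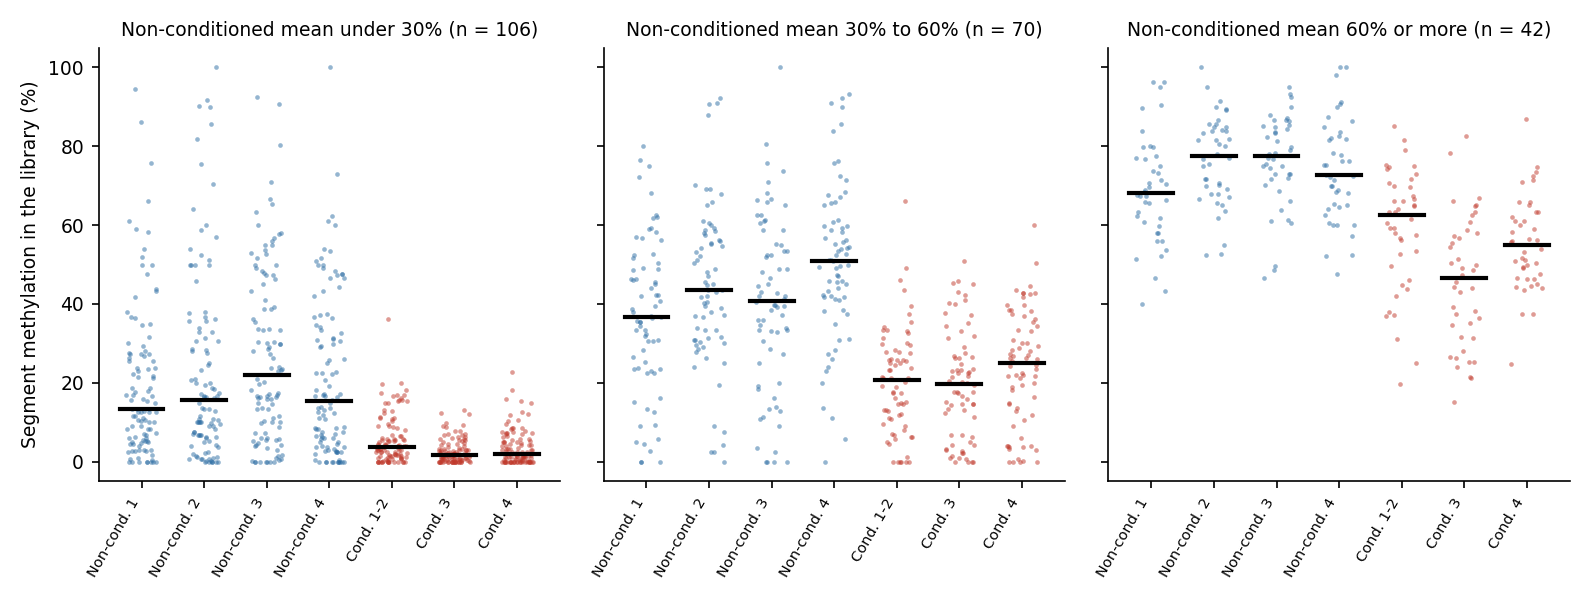
Methylation of each of the 218 lower segments with library values (vertical axis, percent) in the 4 non-conditioned (blue) and 3 conditioned (red) libraries, in 3 panels by non-conditioned mean. Each point is 1 segment and each black line the median of a library. Under 30% the medians run from 13.3% to 21.9% in the non-conditioned and from 1.78% to 3.80% in the conditioned libraries. Non-conditioned points there reach from 0 to 100% and conditioned points up to 36.1%. At 60% or more the clouds of both groups overlap.

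The 10 segments with the widest gap between the groups started at levels from 15.7% to 84.2%. At chromosome 13, 1081823 to 1081900, the non-conditioned libraries had 73.7%, 69.2%, 86.4% and 78.4% and the conditioned ones 19.7%, 31.2% and 46.3% over 10 positions. The lowest non-conditioned library stood 22.9 points above the highest conditioned one. The group means came to 76.9% ± 7.32 (SD, n = 4) and 32.4% ± 13.3 (SD, n = 3). No 2 positions of this segment were paired as the strands of 1 CpG, and 9 of the 10 were lower.

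A pair of segments further along the same chromosome had close replicates. At 13358579 to 13358652 the non-conditioned libraries had 67.7%, 65.1%, 72.0% and 68.8% and the conditioned ones 49.5%, 43.1% and 43.7%. The groups were 15.5 points apart at their nearest, with means of 68.4% ± 2.87 (SD, n = 4) and 45.4% ± 3.57 (SD, n = 3). Both strands differed alike, by -23.9 and -22.1 points. From 13242341 to 13242467 the group means came to 68.7% ± 1.60 (SD, n = 4) and 48.1% ± 6.28 (SD, n = 3), and the strands differed by -32.5 and -13.7 points. Positions within 250 bp of these segments were not lower. They had 34.7% and 36.1% in the 2 groups around the former, and 75.2% and 79.1% around the latter.

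Among segments that ended near 0, chromosome 1, 166202748 to 166202783, had 21.8%, 28.5%, 18.1% and 22.5% in the non-conditioned and 2.5%, 0.294% and 0 in the conditioned libraries. All 10 of its positions were lower, and the strands differed by -11.1 and -32.5 points. The segment from 170581695 to 170581723 on chromosome 1 had means of 20.7% ± 4.29 (SD, n = 4) and 4.25% ± 2.90 (SD, n = 3), and its strands differed by -3.98 and -26.6 points. In both, most of the difference thus came from 1 strand.

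Chromosome 10 held 3 of these 10 segments. The segment at 15898926 to 15899021 had 49.0%, 43.5%, 43.0% and 45.1% in the non-conditioned and 25.8%, 31.3% and 21.7% in the conditioned libraries over 20 positions. Its strands differed by -32.5 and -5.71 points. From 2621067 to 2621135 the group means came to 43.9% ± 6.0 (SD, n = 4) and 20.6% ± 5.35 (SD, n = 3), with -20.0 and -19.5 points on the strands over its 6 paired positions. At 1044589 to 1044630 they were 65.1% ± 4.40 (SD, n = 4) and 45.4% ± 7.18 (SD, n = 3), and all 13 positions were lower. On chromosome 12, 2519703 to 2519806, a highly methylated segment had 84.2% ± 5.78 (SD, n = 4) and 64.0% ± 2.73 (SD, n = 3). The remaining one, starting at 67300055 on chromosome 1, had conditioned values of 0 throughout. Its non-conditioned mean was 15.7% ± 1.64 (SD, n = 4).

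The largest mean difference came with an uneven group. It lay on chromosome 1 at 42795657 and rested on non-conditioned values that ran from 11.3% to 91% (SD 38.7, n = 4). It held no paired positions of both strands, and with its highest library left out the difference was -47.6 points. Outside the chromosomes with library values, large differences were at chromosome 9, 4675125 to 4675209, with deposited means of 49.5% and 2.44%, chromosome 27, 4859677 to 4859826, with 58.1% and 13.8%, and chromosome 17, 9231332 to 9231403, with 51.5% and 7.46%. Chromosome 8, 1270597 to 1270666, had 43.7% and 1.58%. Of the other segments past 40 points, those on chromosomes 6 and 18 ended at 10.4% and 3.23%, and those on chromosomes 19 and 28 at 39.5% and 30.1%. Each of these had 10 to 15 positions, and no spread between libraries can be given for them.

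The 7 segments with a q-value under 0.05 in the authors' deposited table had differences from -58.1 to -16.9 points and 10 to 27 positions. Of these, 3 were on chromosome 1, 1 on chromosome 14 and 3 on unplaced scaffolds. The smallest q-value in the set, 1.52e-05, belonged to chromosome 1, 84962455 to 84962500, where all 22 positions were lower. The scaffold segments had deposited means of 19.1% and 2.19%, 39.6% and 22.3%, and 71.8% and 42.9%. At chromosome 14, 761248 to 761361, the strands differed by -9.18 and -31.1 points over 27 positions. The segment at chromosome 1, 36471370 to 36471421, held no paired positions, and without its highest library the difference was -18.6 points.

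Some differences rested on a single non-conditioned library. With the highest non-conditioned library left out of each segment, the median difference of the 218 went from -18.6 to -12.7 points. It stayed at 15 points or more in 68 segments, was under 5 points in 29, and in 4 of these the conditioned mean was the higher. Leaving out the highest library lowers any difference, so these counts describe how unequal the libraries were. Segments starting at 20% to 30%, the level with the highest share of lower segments, held 17 of the 29 (17 of 76, or 22.4%), against 12 of the 142 others (8.45%). This contrast is partly set by construction, so nothing is read from it. A high library among low ones gives a mean in or near that range, and highly methylated segments leave little room for one. Among segments higher by 15 points, 23 of 124 differed by under 5 points without their highest conditioned library, of which there were 3.

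In the extreme form, 1 library was at 80% or more and the other 6 were under 10%. At chromosome 11, 10196507 to 10196550, non-conditioned library 4 was at 100% at all 10 positions, and the other 6 libraries were listed at 0. At chromosome 12, 254791 to 254859, non-conditioned library 2 was at 100% and the other 6 at 0 to 3.33%. At chromosome 1, 182848370 to 182848416, non-conditioned library 1 had 94.4%, and at chromosome 13, 4815776 to 4815846, non-conditioned library 3 had 92.4%. Each library of the group was thus the high one somewhere. A less extreme case at chromosome 12, 11450868 to 11450931, had 33.3%, 4.17%, 100% and 0 in the non-conditioned libraries, and the conditioned ones were listed at 0.

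Over all 11570 segments, whatever their group difference, 7 had this form. The high library was non-conditioned library 1 in 1, library 2 in 2, library 3 in 3 and library 4 in 1, and a conditioned library in none. All 7 belong to the lower set, with non-conditioned means of 20.9% to 26.2%. The form nearly fixes both, since 1 high non-conditioned library sets that mean and every conditioned library is low. Of the 7, 6 held no paired positions of both strands. In the high library 91.3% of their positions were at exactly 100%, while positions within 250 bp averaged 2.42% to 5.45% in non-conditioned microglia. The conditioned libraries had values at more positions, and the part of that in the count of 0 was not tested.

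**Figure D5:**
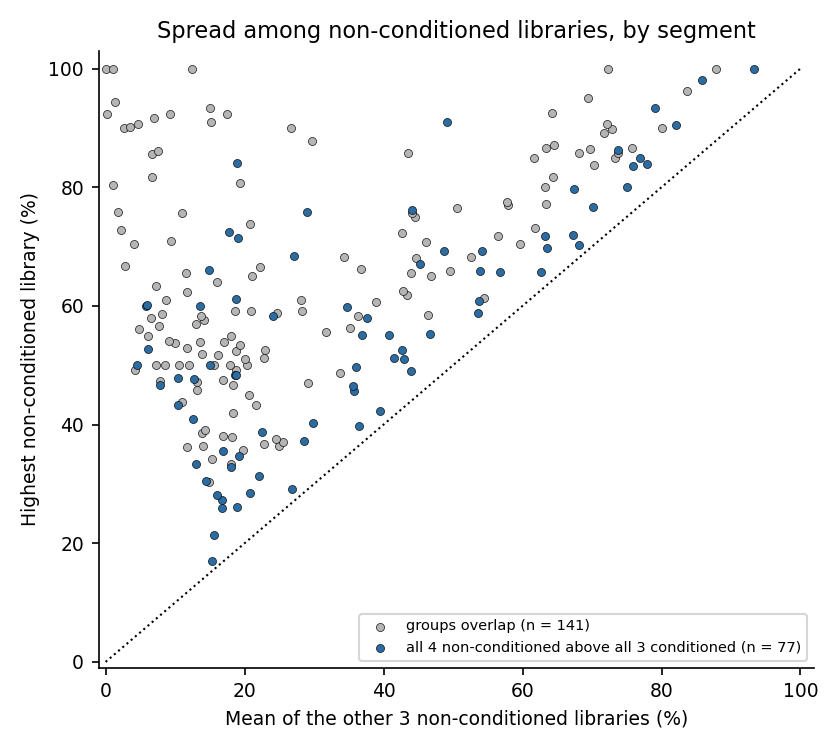
Highest non-conditioned library (vertical axis, percent) against the mean of the other 3 (horizontal axis, percent) in the 218 lower segments with library values, with equal levels as a dotted line. Blue segments are the 77 in which all 4 non-conditioned libraries lie above all 3 conditioned ones, and grey ones those in which the groups overlap. Points at the upper left are segments in which 1 library stands far above the other 3.

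Values at the ends of the scale were common in the lower segments. On average 18.6% of the position values of non-conditioned libraries were at exactly 100%, against 2.01% of those of conditioned libraries. Over all segments starting at 15% or more these shares were 9.84% and 4.99%. In the segments higher by 15 points they were 7.02% and 13.8%. Over the lower set 31.5% of the non-conditioned and 46.2% of the conditioned values were at exactly 0. These shares were 13.7% and 13.8% over segments starting at 15% or more, and 34.55% and 41.9% over all segments with library values. In lower segments starting under 30% they were 48.5% and 72.2%. The rule favours high non-conditioned and low conditioned values, so nothing is read from these shares.

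The strands of the lower segments were often unequal. A CpG read on both strands gives a pair of adjacent positions. Among positions measured in all 7 libraries, 40 of the 218 segments (18.3%) held no such pair. This share was 3.19% of segments starting at 15% or more and 23.4% of those higher by 15 points. A pair with a value missing in any library was not counted. In the 40 a median of 52.6% of positions were measured in all 7 libraries. It was 91.7% in segments starting at 15% or more, 66.7% in the higher ones and 100% over all segments. These 40 segments ended at a median of 2.24% and had a median non-conditioned SD of 23.6 points. Their groups did not overlap in 9 (22.5%), against 17.1% of all segments. Of all segments with no paired position it was 6.84%, and of such segments starting at 15% or more 14.5%. In the other 178, both strands were lower in 164 (92.1%), and both were lower by 15 points in 31 (17.4%). Over all segments with paired positions these shares were 72.6% and 0.322%, and over those starting at 15% or more 52.6% and 1.56%. The rule chose on the same difference, so nothing is read from these shares. The median gap between the strands was 14.1 points, against 4.38 points in segments starting at 15% or more and 11.1 points in those higher by 15 points. The lower and higher sets were chosen for large differences, so nothing is read from this gap. In the lower set it was 21.3 points for segments starting under 30% and 9.54 points for those starting at 60% or more. All positions were lower in 101 of the 218 (46.3%), against 16.9% of all segments with library values and 13.7% of those starting at 15% or more. The set was chosen in that direction.

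The bases beside the segments differed little. Positions outside a lower segment and within 250 bp of it had a median level of 10.3% in non-conditioned and 8.86% in conditioned microglia, over the 207 segments with at least 3 such positions. The median difference was -1.27 points, and over all 11207 segments with flanks it was -1.22 points. Over the 2106 of these that started at 15% or more it was -0.428 points. In 150 of the 207 (72.5%) the flank was lower in conditioned microglia. This share was 82.0% over all segments with flanks and 56.9% over those starting at 15% or more. In 17 it was lower by at least 5 points and in 0 by 15 points. Of the 2106 starting at 15% or more this held in 197 and 16, and of all 11207 in 482 and 24. A flank under 15% cannot be lower by 15 points, so nothing is read from the 0. Within 1000 bp the median difference was -1.31 points, and none of 213 was lower by 15 points. Of segments starting at 15% or more, 10 of 2224 had such a flank. Around segments starting under 30% the flanks were at 6.05% in non-conditioned microglia, and around those starting at 60% or more at 55.0%.

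Libraries left out when the 15-point rule was applied showed smaller differences. When the rule was applied without 1 non-conditioned library, the library left out had a median level of 16% to 18.8% in the 226 to 299 segments chosen. The other non-conditioned libraries there had 31.4% to 32.7%, and the conditioned libraries 7.46% to 8.61%. In 33.8% to 44.2% of the segments the library left out was nearer to the other non-conditioned libraries than to the conditioned ones. When a conditioned library was left out, it was nearer to the other conditioned libraries in 58.9% of segments for library 1-2, 82.2% for library 3 and 79.0% for library 4. In each of these the libraries it was set against had taken part in the choice.

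With 1 library of each group left out, both libraries compared took no part in applying the 15-point rule. This was done for the libraries numbered 3 and those numbered 4, put together by number only. Conditioned library 1-2 entered no such pair. Over all segments with library values, the pair numbered 3 differed by a median of -2.50 points and the pair numbered 4 by -2.03 points. The segments to choose from were still those of the deposited table, whose group means hold all 7 libraries. The pair left out was thus not fully free of the choice. Without both libraries numbered 3, the other 5 chose 224 segments, where their median difference was -18.9 points. There non-conditioned library 3 had a median of 17.4% and conditioned library 3 of 6.86%. Conditioned library 3 was the lower in 166 of 224, the median difference was -5.75 points, and 59 (26.3%) were lower and 5 (2.23%) higher by 15 points. Over all 2381 segments starting at 15% or more, the median difference of this pair was -5.18 points, with 19.2% lower and 3.44% higher by 15 points and 71.7% lower at all, against 74.1% of the 224. Without both libraries numbered 4, 253 segments were chosen at a median of -19.2 points, and the pair left out differed by a median of -5.90 points, against -2.47 points over the 2381. Conditioned library 4 was the lower in 188 of 253 (74.3%), with 65 (25.7%) lower and 6 (2.37%) higher by 15 points. Over the 2381 these shares were 60.4%, 13.8% and 4.45%. The 2381 were defined by the mean of all 4 non-conditioned libraries, so the non-conditioned library left out took part there, which favours a high value of it. The median difference of the pair numbered 3 was near that over the 2381, but the levels of both sets were unlike. Over the 2381, non-conditioned library 3 had a median of 37.7% and conditioned library 3 of 31.1%, against 17.4% and 6.86% in the 224. These are values of single libraries, with no test.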

How the data were processed

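Per the labels' protocols, libraries were made with a kit for reduced representation bisulfite sequencing and sequenced for 75 cycles. The build galGal5 and the tools Bismark 0.22.3, Bowtie, Trimmomatic and HOMER are named in the submitters' processing notes, with no roles. How the segments were called is not given in the sources used here. The deposited site table holds percent methylation per cytosine position and library, unscaled, with no read numbers, so no interval for depth is given. The deposited segment table holds group mean percent methylation, and p-values and q-values of the authors' tests. Its first coordinate counts from 0, and positions here count from 1.

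Segment means per library were taken over positions measured in all 7 libraries, and matched both deposited group means within 0.01 points in all 11570 segments inside the site table. The SD is between libraries. Strands were read from positions 1 bp apart among those measured in all 7 libraries, leaving out odd runs of adjacent positions. Strand differences used these paired positions only, so they can rest on few positions and need not average to the difference of the segment. Steps were tested on simulated data. Python 3.11.15, numpy 2.4.6, pandas 2.3.3, scipy 1.17.1 and matplotlib 3.10.9 were used.

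The members and the lists were chosen with earlier results of these data known. Segments were named by rule: the 10 widest gaps between non-overlapping groups, the 10 largest differences, every q-value under 0.05, the 2 on either side of the threshold, the 3 largest groups within 10 kb, the 5 most dependent on 1 library, and the 3 highest and lowest starting levels. The chromosome 15 group, chromosome 27, the level of the highest library, the form with 1 library high, and the libraries left out in pairs were added after values were seen. Alternatives were other thresholds, scalings and position sets, and each library left out. Gene names, gene lists and sequence were not used here, since the annotation at hand is of another build.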

Additional observations from a re-analysis of the deposited data

Results flagged for a closer look

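In 27 named segments the 4 non-conditioned values were examined for a library whose gap to its nearest neighbour takes up more of the range than Dixon's 95% critical value allows. Chance gives such a gap in about 1 of 20 groups of values not chosen for it. Here 5 segments had one, but 4 of them were named because 1 library carried their difference, so their number is decided by that choice. At chromosome 11, 10196507 to 10196550, the gap over range was 1, for non-conditioned library 4. At chromosome 13, 4815776 to 4815846, it was 0.994, for library 3, and at chromosome 12, 254791 to 254859, it was 0.967, for library 2. At chromosome 1, 182848370 to 182848416, it was 0.956, for library 1. The fifth is a segment just outside the threshold, at chromosome 1, 117845349 to 117845400, with a gap over range of 0.857. There non-conditioned library 4 had 45.6% against 15.1%, 12.1% and 16.9%, and the conditioned libraries had 10.8%, 5.78% and 5.78%. Over all 218 lower segments with library values, 34 (15.6%) had a library apart by this measure, in 32 of them on the high side, against 7.60% of the segments starting at 15% or more. The rule chose on these same values and favours a high non-conditioned library, so neither the share nor the side is a result.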

How the results depend on the processing

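The number of lower segments followed the threshold, with 2929 at 10 points, 382 at 20 and 51 at 30, and was 129 with at least 15 positions. Of the 218 with library values, 71 reached 15 points on both strands or had no paired position, and over all segments with library values 36 reached it on both strands. Applying the rule with each library left out in turn gave 202 to 299 segments. In the 218 chosen with all libraries, the share of non-overlapping groups was then 39.0% to 56.0% (19.6% to 45.3% over all segments). That share rises with fewer libraries by construction. The median difference of the same 218 was then -20.3 to -18.0 points. Centring each library on the common mean gave 170 segments, of which 27.1% did not overlap. Members near another numbered 58 at 1 kb and 504 at 100 kb. The sign of the median difference is fixed by the choice of members. No paired analysis was possible because a fit with a replicate block gives a test, and these segments were chosen on the difference it would test. As values, the libraries numbered 3 differed by a median of -19.7 points (lower in 195 of 218) and those numbered 4 by -16.4 points (lower in 197). Read depth is unknown for every value.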
